A study of Homo sapiens with 12 samples.

Results

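The SR and hnRNP splicing factors described here are 42 genes, chosen by symbol: 12 SR proteins (SRSF1 to SRSF12), the related TRA2A and TRA2B, 21 hnRNP proteins with SYNCRIP (hnRNP Q) among them, the 3 PTB proteins, and 4 kinases that phosphorylate SR proteins (CLK1, CLK4, SRPK1 and SRPK2). Each of the 42 symbols matched exactly 1 of the 58037 identifiers in the counts. RNA-seq was performed on DU-145 cells, an androgen-independent prostate cancer line, and on LNCaP-AI cells, which were derived from the LNCaP lineage by selection without androgen and long-term growth in androgen-depleted medium. All samples carried a doxycycline (DOX)-inducible shRNA against MUC1 (tet-MUC1shRNA). The sources differ on the medium of DU-145 cells: the labels give both lines phenol red-free medium with charcoal-stripped serum, while the study's methods give this medium for LNCaP-AI cells and standard serum for DU-145 cells, so a difference in medium between the lines is possible. In each line 3 cultures received vehicle and 3 received DOX (500 ng/ml, 7 days of exposure), which gives 4 groups and 12 samples. The labels name the groups shCTL and shMUC1, whereas the study's legends name them by vehicle and DOX, with 1 tet-MUC1shRNA construct in both. DOX-treated cells with a control shRNA are not among these samples. The drug's own effect and the shRNA's cannot be told apart.

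SR proteins bind short exonic sequences through RNA recognition motifs and recruit the spliceosome through a domain rich in arginine and serine. CLK and SRPK kinases phosphorylate that domain, which controls where SR proteins reside and when they act. The hnRNP proteins coat nascent RNA, often oppose SR proteins at exons, and also serve in mRNA stability, export and translation, and PTB proteins bind pyrimidine-rich tracts and repress exons. Many SR and hnRNP genes limit their own mRNA by including a poison exon that sends the transcript to nonsense-mediated decay, a level of control that counts per gene do not resolve.

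Total counts were 10423437 to 13544153 in DU-145 samples and 16569613 to 26961777 in LNCaP-AI samples. MUC1 had 74, 60 and 59 counts with vehicle and 3, 3 and 3 with DOX in DU-145 cells, and 36, 25 and 52 against 8, 6 and 3 in LNCaP-AI cells. The luminal prostate marker KLK3 followed the line labels, with 0 counts in every DU-145 sample and 2636 to 8258 counts in LNCaP-AI samples, where it was higher with DOX. The LNCaP-AI samples did not divide first by treatment: the leading principal component over all genes held 80.6% of the variance and separated 2 sides, one made up of vehicle 1 with DOX 2 and 3, the other of vehicle 2 and 3 with DOX 1. Of the 10 genes of the DU-145 marker list, 9 followed this division; VIM followed the treatment (29.4, 28.9 and 32.2 CPM with vehicle, 54.8, 59.6 and 58.5 CPM with DOX; CPM are normalised read counts relative to library size). KRT7 was 424, 563 and 440 CPM in vehicle 2, vehicle 3 and DOX 1 and 1.02 CPM or less in the other LNCaP-AI samples, and the 10 markers summed to 1400 to 1650 CPM against 160 to 186. KRT5, from the same list, was 40.0 to 52.8 CPM in those samples but at most 0.444 CPM in DU-145 samples. No label gives a batch that matches the division, and its part in the results for LNCaP-AI cells was not tested. Differences in LNCaP-AI cells are therefore also given within each side, without a test. In bulk RNA, fewer cells of a kind and less RNA per cell cannot be told apart.

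In DU-145 cells the splicing factor genes were lower with DOX as a group. At an adjusted p under 0.05 (edgeR's quasi-likelihood test, Benjamini-Hochberg over 13644 genes), 31 of the 42 members were lower and 0 were higher, and DESeq2 called 30, all lower. Of all genes tested, edgeR called 25.3% lower, 26.3% higher and 51.5% in either direction, and DESeq2 called 44.6%. At an unadjusted p under 0.05, 33 members passed, against 56.9% of all genes. The median log2 fold change was -0.39 over the members and 0.00 over all genes tested. In 33 members every DOX sample lay below every vehicle sample, against 27.7% of all genes, and in 2 members (SRSF9 and SRPK2) every DOX sample lay above, against 29.6% (57.4% for either direction). The members' summed level was 14600 to 15400 CPM with vehicle and 11500 to 11900 CPM with DOX, or 1.47 to 1.55% of all counts against 1.14 to 1.16%.

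Among the SR proteins 9 of 12 fell, with a median log2 fold change of -0.45. SRSF1, which favours exon inclusion and is a known proto-oncogene, changed most of all 42 members. This gene (ENSG00000136450, chromosome 17, 58000919 to 58007346, minus strand, GRCh38) was at 428, 369 and 447 CPM with vehicle and 202, 198 and 189 CPM with DOX. Vehicle levels were thus about double those with DOX in each sample, with no overlap, and the log2 fold change was -1.08 ± 0.0766 (SE, n = 3 per group, adjusted p = 1.23e-09 by edgeR). SRSF10, a splicing repressor when dephosphorylated, was at 169, 155 and 184 CPM with vehicle and 114, 115 and 121 CPM with DOX. SRSF2, which also acts in transcriptional elongation, was at 261, 300 and 309 CPM with vehicle and 193, 172 and 212 CPM with DOX. For both genes the groups were separate, with log2 fold changes of -0.54 and -0.59.

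SRSF3, the smallest SR protein and an adaptor in mRNA export, was at 485, 414 and 528 CPM with vehicle and at 320, 310 and 329 CPM with DOX. SRSF5 was at 176, 199 and 218 CPM with vehicle and 127, 148 and 142 CPM with DOX. SRSF6 was at 297, 308 and 339 CPM with vehicle and 229, 236 and 246 CPM with DOX. All 3 fell without overlap, by 0.57, 0.51 and 0.41 on the log2 scale. SRSF4, SRSF7 and SRSF11 also fell, with log2 fold changes of -0.28, -0.44 and -0.46. The exceptions were SRSF8 (-0.12, adjusted p = 0.173 by edgeR), SRSF12 (-0.11, adjusted p = 0.635) and SRSF9. SRSF9 was at 67.0, 63.2 and 67.2 CPM with vehicle and 72.3, 78.3 and 70.9 CPM with DOX, a log2 fold change of 0.17 (adjusted p = 0.0592 by edgeR). In the annotation, exons of SRSF9 overlap GATC on the opposite strand, and whether counting used strand is not given in the sources used here.

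**Figure D1:**
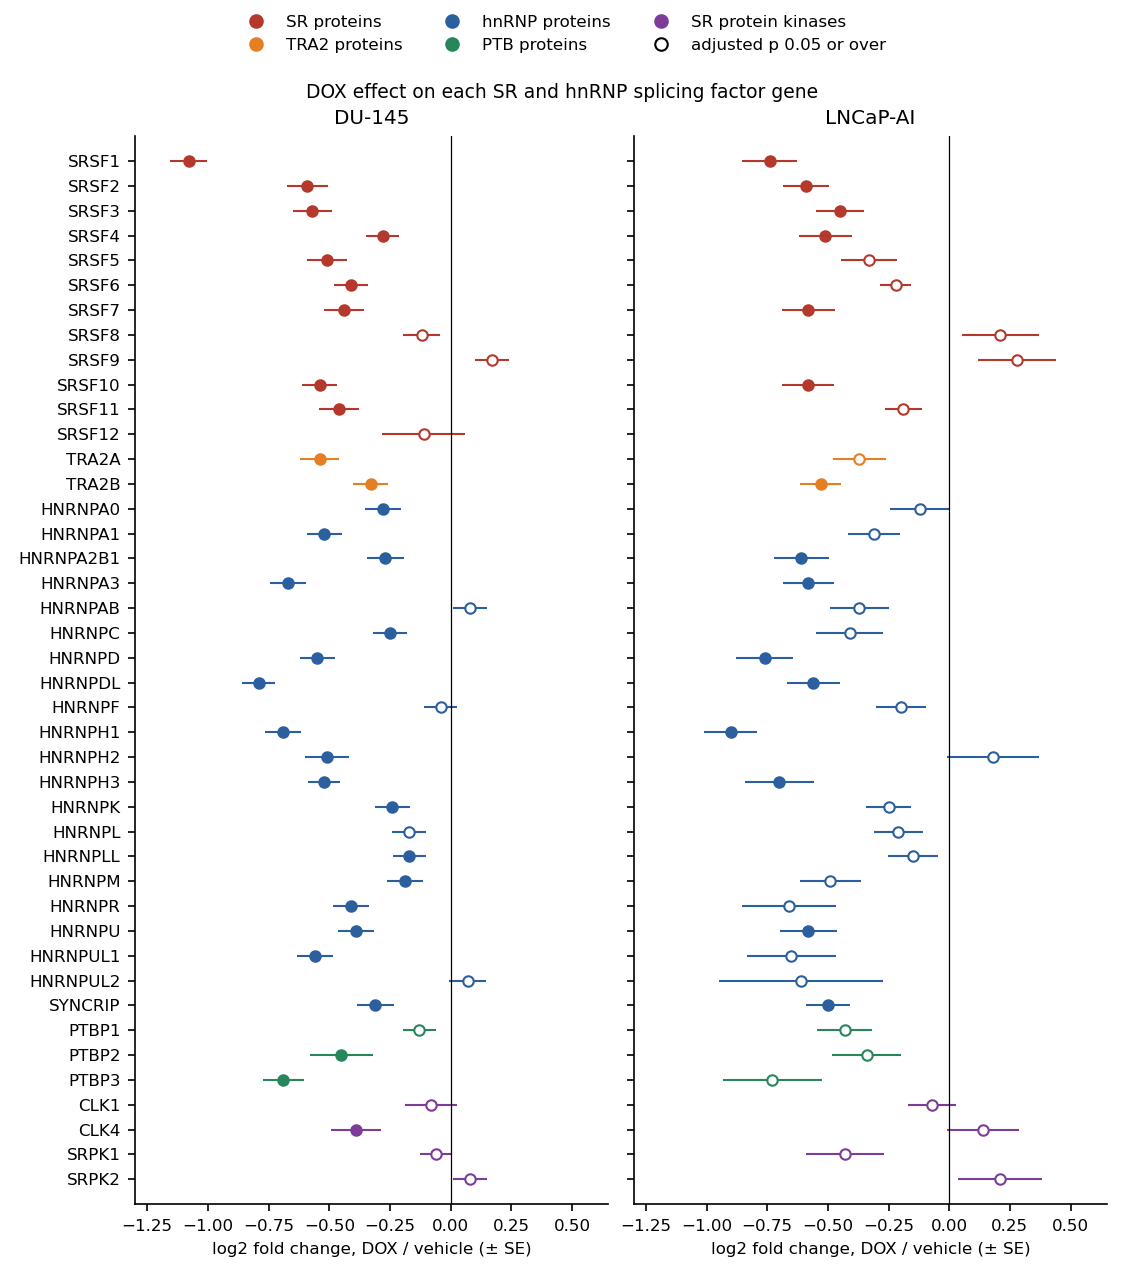
Log2 fold change of each of the 42 genes with DOX against vehicle in DU-145 (left) and LNCaP-AI cells (right), from edgeR with 3 samples per group. Points are fitted values, bars are standard errors, colours mark the class, and filled points passed an adjusted p of 0.05; 31 points are filled in DU-145 and 15 in LNCaP-AI cells, all below 0. SRSF12 has no point in LNCaP-AI cells because its counts were too low for the test.

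Both TRA2 genes, whose products bind GA-rich exonic enhancers, fell in DU-145 cells. TRA2A was at 101, 97.9 and 120 CPM with vehicle and 70.9, 72.4 and 76.8 CPM with DOX, and its log2 fold change was -0.54. TRA2B was at 288, 258 and 299 CPM with vehicle and 224, 220 and 231 CPM with DOX, for a smaller change of -0.33. Neither gene's groups overlapped.

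Of the 21 hnRNP genes 17 fell, with a median log2 fold change of -0.31. The largest change was in HNRNPDL, a paralog of HNRNPD (AUF1), which controls the decay of mRNAs with AU-rich elements. HNRNPDL was at 299, 290 and 313 CPM with vehicle and 173, 167 and 182 CPM with DOX, a log2 fold change of -0.79 ± 0.0678 (SE, n = 3 per group, adjusted p = 1.55e-08 by edgeR). HNRNPD itself was at 521, 512 and 497 CPM with vehicle and 375, 346 and 322 CPM with DOX, a log2 fold change of -0.55. In both paralogs the highest DOX sample was well below the lowest vehicle sample.

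The 3 genes of the hnRNP H family that were measured fell as well; their products bind G-rich runs. HNRNPH1 was at 699, 694 and 791 CPM with vehicle and 449, 444 and 461 CPM with DOX (log2 fold change -0.69). HNRNPH3 was at 273, 265 and 284 CPM with vehicle and 189, 196 and 186 CPM with DOX (-0.52). HNRNPH2, with a lower level, was at 71.3, 60.2 and 78.2 CPM with vehicle and 52.7, 46.1 and 49.4 CPM with DOX (-0.51). The closely related HNRNPF was not called, at 475, 487 and 467 CPM with vehicle and 478, 443 and 467 CPM with DOX (-0.04, adjusted p = 0.653 by edgeR).

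HNRNPA3, of the hnRNP A/B group, was at 304, 263 and 309 CPM with vehicle and 189, 188 and 175 CPM with DOX, a log2 fold change of -0.67 without overlap. Its exons overlap NFE2L2 on the opposite strand over 53.6% of their length. HNRNPA1, a splicing silencer, and HNRNPA2B1 fell by 0.52 and 0.27 on the log2 scale, whereas HNRNPAB was not called (0.08, adjusted p = 0.347 by edgeR). HNRNPUL1, which also acts in the DNA damage response, was at 618, 568 and 550 CPM with vehicle and 401, 406 and 367 CPM with DOX (-0.56), and its relative HNRNPUL2 was not called (0.07, adjusted p = 0.446). The remaining called hnRNP genes ranged from -0.17 (HNRNPLL) to -0.41 (HNRNPR). HNRNPL was at -0.17 with an adjusted p of 0.0504 in the same edgeR test, just outside the threshold.

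Among the PTB proteins, PTBP3 and PTBP2 fell. PTBP3 was at 469, 378 and 482 CPM with vehicle and 291, 272 and 260 CPM with DOX, a log2 fold change of -0.69. PTBP2, the neuronal paralog, was at a low 18.3, 17.8 and 22.7 CPM with vehicle and 13.0, 12.7 and 17.6 CPM with DOX (-0.45), with the highest DOX sample close to the lowest vehicle sample. PTBP1, the main form outside neurons, was at 551, 547 and 532 CPM with vehicle and 507, 508 and 478 CPM with DOX, which did not pass the test (-0.13, adjusted p = 0.129 by edgeR). Of the SR protein kinases 1 of 4 was called lower, where 25.3% of all genes were. CLK4 was at 19.1, 20.1 and 21.9 CPM with vehicle and 15.4, 15 and 16.2 CPM with DOX (-0.39). CLK1, SRPK1 and SRPK2 had log2 fold changes of -0.08, -0.06 and 0.08, with adjusted p-values of 0.348 to 0.584 in the edgeR test.

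**Figure D2:**
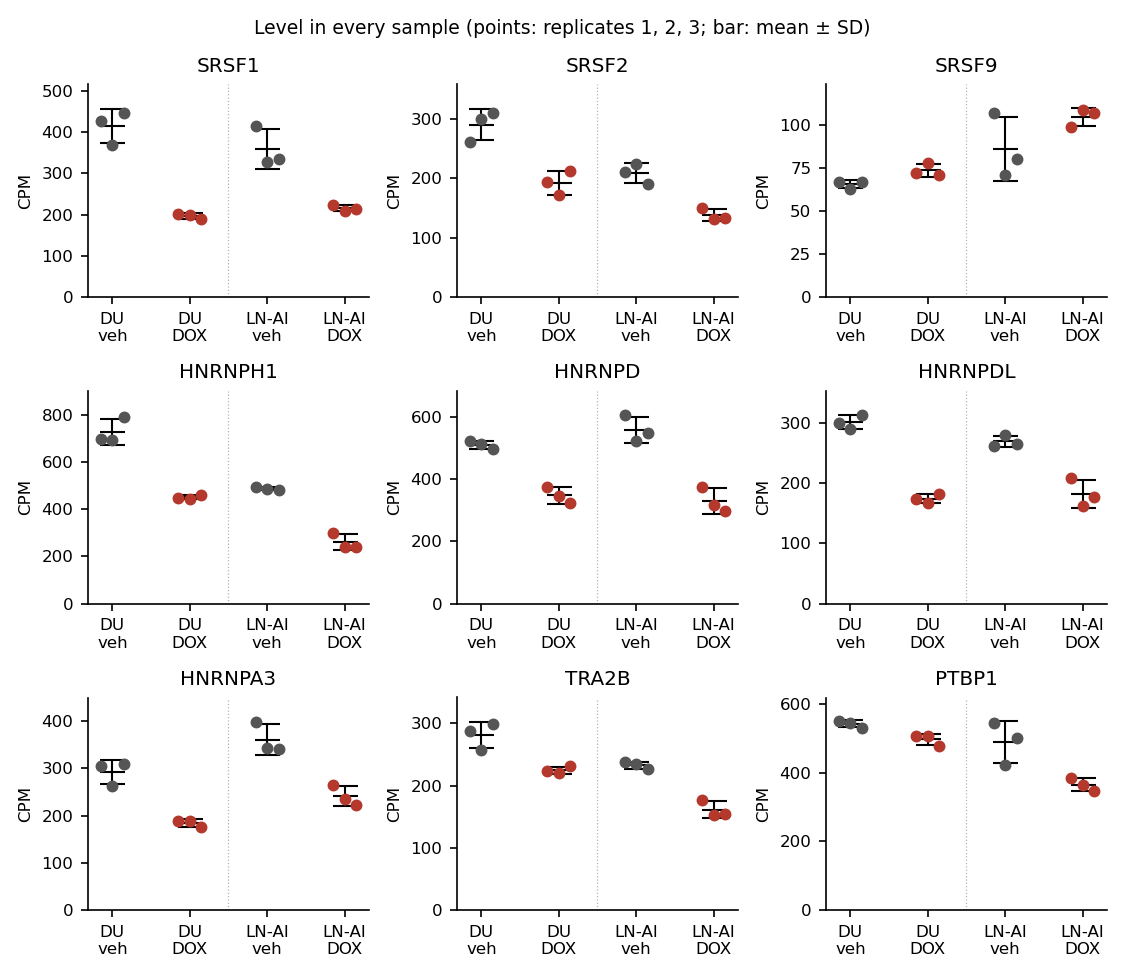
Normalised read counts (CPM, linear axes from 0) of 9 genes in every sample, by line (DU, DU-145; LN-AI, LNCaP-AI) and treatment (veh, vehicle). Grey points are vehicle and red points DOX samples, and bars give the mean and SD (n = 3); SRSF1 falls from 415 to 197 CPM in DU-145 and from 359 to 215 CPM in LNCaP-AI cells, while SRSF9 does not fall in either line.

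The start-site regions of the members were searched for short sequences. RefSeq promoters (GRCh38.p14, 250 bases before to 50 after the start, 300 in all) were matched for 39 of the 42 genes; SRSF2, TRA2A and HNRNPA1 were not matched. The E-box CACGTG, the site that MYC and MAX and other factors of their class bind, reads the same on both strands. It occurred in 9 of the 39 promoters (23.1%), in 9.93% of the promoters of genes tested in either line and in 7.43% of all 27305 promoters. By class it was present in 8 of 20 hnRNP promoters, in 0 of 11 SR promoters and in 1 of 4 kinase promoters (CLK4). CACGTG holds a CpG, and the median CpG count per promoter was 31 for members, 26 for tested genes and 14 over all promoters. This median was 31.5 in hnRNP and 30 in SR promoters. The part of base composition in the motif shares was not tested. E2F-type letters (TTTCCCGC, TTTCGCGC, TTTGCCGC or TTTGGCGC, on either strand) occurred in 5 of 39 members (12.8%) and 5.16% of promoters of tested genes. CCAAT, on either strand, occurred in 41% and 36.6%, the CRE letters TGACGTCA in 0 of 39 members and 3.18%, and TATAAA in 12.8% and 6.16%. None of the letters searched contains another. A match is a description of the sequence only. Among the hnRNP genes called lower in both lines, HNRNPH1, HNRNPA2B1 and HNRNPU held no E-box and are not shown. The promoters of the 5 that held one are shown for the position of the E-box (in capitals). That of SRSF1, the member of the largest change in DU-145 cells, holds none and is shown last:
HNRNPD (chr4:82373942-82374241, minus strand): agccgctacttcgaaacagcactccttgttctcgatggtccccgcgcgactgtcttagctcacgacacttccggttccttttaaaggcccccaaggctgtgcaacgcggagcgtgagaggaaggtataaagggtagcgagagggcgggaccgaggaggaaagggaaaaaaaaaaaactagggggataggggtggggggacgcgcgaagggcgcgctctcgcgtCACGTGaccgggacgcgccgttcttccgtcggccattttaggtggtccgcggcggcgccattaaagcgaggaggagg
HNRNPDL (chr4:82430176-82430475, minus strand): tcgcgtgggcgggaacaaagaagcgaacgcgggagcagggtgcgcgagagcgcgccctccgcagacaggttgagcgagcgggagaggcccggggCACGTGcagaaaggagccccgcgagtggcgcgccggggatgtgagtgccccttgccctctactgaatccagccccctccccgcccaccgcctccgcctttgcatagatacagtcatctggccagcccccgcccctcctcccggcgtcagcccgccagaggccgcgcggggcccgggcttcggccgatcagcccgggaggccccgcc
HNRNPA3 (chr2:177212544-177212843, plus strand): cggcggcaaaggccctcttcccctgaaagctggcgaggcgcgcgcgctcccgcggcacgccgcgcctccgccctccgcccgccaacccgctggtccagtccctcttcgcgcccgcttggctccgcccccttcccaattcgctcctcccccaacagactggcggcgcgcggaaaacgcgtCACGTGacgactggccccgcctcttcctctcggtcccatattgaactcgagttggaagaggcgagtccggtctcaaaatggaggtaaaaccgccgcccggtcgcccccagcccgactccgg
HNRNPH3 (chr10:68331443-68331742, plus strand): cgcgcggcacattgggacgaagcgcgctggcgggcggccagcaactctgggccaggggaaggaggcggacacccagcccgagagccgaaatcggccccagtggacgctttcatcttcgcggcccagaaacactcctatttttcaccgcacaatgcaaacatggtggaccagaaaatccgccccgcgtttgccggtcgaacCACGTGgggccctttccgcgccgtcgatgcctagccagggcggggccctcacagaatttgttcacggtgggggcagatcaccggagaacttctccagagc
SYNCRIP (chr6:85643821-85644120, minus strand): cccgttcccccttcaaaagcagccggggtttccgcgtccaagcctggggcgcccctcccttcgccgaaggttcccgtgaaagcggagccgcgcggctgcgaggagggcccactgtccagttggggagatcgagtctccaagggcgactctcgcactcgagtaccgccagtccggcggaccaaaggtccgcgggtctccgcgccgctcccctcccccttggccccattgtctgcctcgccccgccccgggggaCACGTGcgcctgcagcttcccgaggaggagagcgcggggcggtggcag
SRSF1 (chr17:58007197-58007496, minus strand): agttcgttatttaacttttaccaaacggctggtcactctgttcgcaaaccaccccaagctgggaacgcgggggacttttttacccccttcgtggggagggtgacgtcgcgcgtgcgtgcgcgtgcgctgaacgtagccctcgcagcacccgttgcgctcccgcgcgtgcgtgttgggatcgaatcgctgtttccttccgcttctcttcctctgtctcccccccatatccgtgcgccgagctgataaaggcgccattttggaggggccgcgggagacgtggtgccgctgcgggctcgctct
The first base of the E-box lay 27 bases before the start in HNRNPD, 156 in HNRNPDL, 71 in HNRNPA3 and 50 in HNRNPH3, and after the start in SYNCRIP. HNRNPH2, whose promoter holds 2 copies, fell in DU-145 cells and was not called in LNCaP-AI cells.

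In LNCaP-AI cells the same direction prevailed, with fewer calls. DOX lowered 15 of the 41 members tested and raised 0 (edgeR, adjusted p under 0.05 over 16030 genes), where 5.52% of all genes were called lower, 7.22% higher and 12.7% in either direction. DESeq2 called 28 members, all lower, and 21.9% of all genes. The number of edgeR calls rests on single samples, for the members and for all genes. Without DOX 2 or without DOX 3 it was 0 members, and 1 of all genes each time. Without vehicle 2 or without vehicle 3 it was 8 members (7.25% and 6.64% of all genes). Leaving out vehicle 1 gave 15 members, 14 lower and 1 higher (13.8% of all genes), and leaving out DOX 1 gave 23 (23.6%). At an unadjusted p under 0.05, 29 members were lower and 0 higher, against 31.2% of all genes in either direction. The median log2 fold change was -0.43 over the members and -0.05 over all genes. Every DOX sample lay below every vehicle sample for 29 members, against 17.6% of all genes, and above for 0 members, against 19.8% (37.4% for either direction). Within the sides the members' median was -0.58 for DOX 2 and DOX 3 against vehicle 1, and -0.28 for DOX 1 against vehicle 2 and vehicle 3; over all genes these medians were -0.05 and -0.00. Both sides gave a lower value with DOX for 35 members and a higher value for 2. Of the 16030 genes tested, 6637 were lower and 5806 higher on both sides. The summed level was 14600, 13000 and 13100 CPM with vehicle and 10800, 9610 and 9470 CPM with DOX.

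SR proteins made up 6 of the 15 calls in LNCaP-AI cells. SRSF1 was at 416, 328 and 335 CPM with vehicle and 223, 209 and 214 CPM with DOX. The DOX samples were close together and all below the vehicle samples, and the log2 fold change was -0.74 ± 0.112 (SE, n = 3 per group, adjusted p = 0.0168 by edgeR), with -0.98 and -0.57 within the sides. SRSF2 was at 211, 224 and 190 CPM with vehicle and 149, 132 and 133 CPM with DOX (-0.59). SRSF10 was at 151, 157 and 147 CPM with vehicle and 116, 93.4 and 94.0 CPM with DOX (-0.58). SRSF7, whose product also acts in mRNA export, was at 170, 171 and 153 CPM with vehicle and 125, 103 and 102 CPM with DOX (-0.58). In SRSF10 and SRSF7, DOX 1 was the highest of the DOX samples, and every DOX value was still below every vehicle value.

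SRSF3 was at 519, 437 and 431 CPM with vehicle and 355, 329 and 330 CPM with DOX (log2 fold change -0.45). SRSF4 was at 151, 145 and 155 CPM with vehicle and 123, 98.8 and 96.5 CPM with DOX (-0.51). Both fell without overlap. SRSF5, SRSF6 and SRSF11, which fell in DU-145 cells, had values of -0.33, -0.22 and -0.19 with adjusted p-values of 0.0727 to 0.157 in the edgeR test. SRSF8 and SRSF9 had values above 0 (0.21 and 0.28, adjusted p = 0.427 and 0.289 by edgeR) and overlapping groups. SRSF9 was called higher without vehicle 1 (0.47, adjusted p = 0.0405 by edgeR; 0.0405 to 1 over all alternatives). SRSF12 had 0, 3 and 0 counts with vehicle and 0, 0 and 0 with DOX and was not tested. TRA2B was at 238, 234 and 226 CPM with vehicle and 177, 152 and 155 CPM with DOX and fell by 0.53 on the log2 scale, while TRA2A had -0.37 (adjusted p = 0.0760 by edgeR).

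The hnRNP genes gave 8 calls of 21 in LNCaP-AI cells. HNRNPH1 had the largest change of the members tested there, at 495, 484 and 481 CPM with vehicle and 301, 239 and 241 CPM with DOX. The vehicle samples differed little from each other, and the log2 fold change was -0.90 ± 0.110 (SE, n = 3 per group, adjusted p = 0.0124 by edgeR), with -1.04 and -0.68 within the sides. HNRNPD was at 605, 523 and 548 CPM with vehicle and 376, 318 and 296 CPM with DOX (-0.76; -0.98 and -0.51 within the sides). HNRNPDL was at 262, 280 and 265 CPM with vehicle and 208, 162 and 176 CPM with DOX (-0.56). HNRNPA3 was at 398, 343 and 341 CPM with vehicle and 265, 236 and 223 CPM with DOX (-0.58). In all of these genes the groups were separate.

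HNRNPA2B1, which also sorts microRNAs and reads modified RNA, was the most abundant member by counts, at 1880, 1570 and 1610 CPM with vehicle and 1210, 1070 and 1040 CPM with DOX (log2 fold change -0.61). SYNCRIP, a cytoplasmic and nuclear RNA-binding protein, was at 374, 388 and 353 CPM with vehicle and 290, 252 and 247 CPM with DOX (-0.50). HNRNPH3 and HNRNPU, a nuclear scaffold factor, completed the calls (-0.70 and -0.58). Several others had values of like size that did not pass: HNRNPR (-0.66, adjusted p = 0.0777), HNRNPUL1 (-0.65, adjusted p = 0.0708) and PTBP3 (-0.73, adjusted p = 0.0664), all by edgeR. HNRNPUL1 was at 267, 266 and 320 CPM with vehicle and 232, 154 and 157 CPM with DOX, so DOX 1 lay between the vehicle samples and the other DOX samples. In HNRNPUL2 the levels followed the division of the samples (47.9, 83.6 and 81.7 CPM with vehicle against 67.9, 37.4 and 33.9 CPM with DOX). Of the PTB proteins and of the kinases 0 were called by edgeR, while 2 and 1 had an unadjusted p under 0.05, all lower. 

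**Figure D3:**
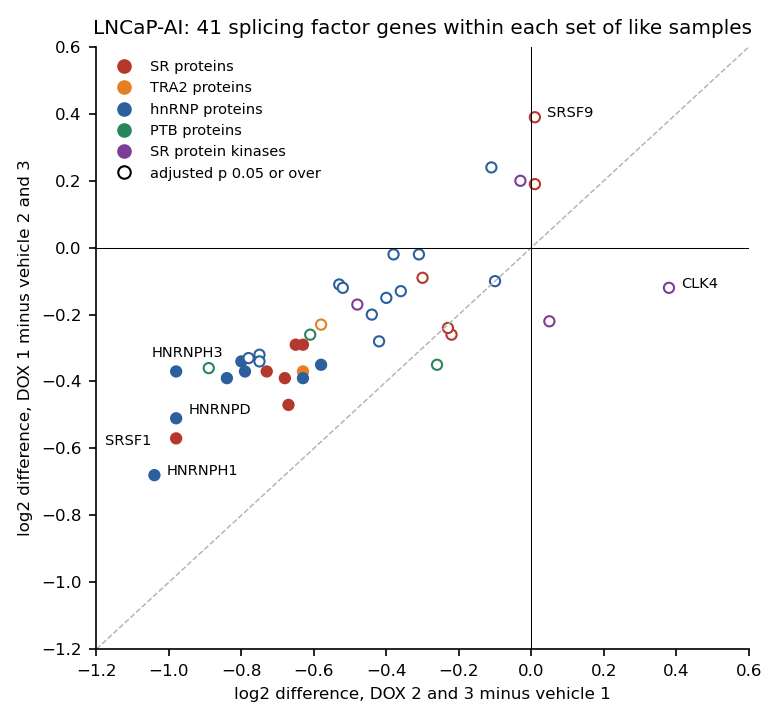
Log2 differences of the 41 tested genes in LNCaP-AI cells within each side of the division, DOX 2 and 3 against vehicle 1 (horizontal) and DOX 1 against vehicle 2 and 3 (vertical), with the line of equal values dashed. Filled points passed the test over all 6 samples. All of them lie below 0 on both axes, which use the same samples as the test and so give no separate support. Medians over the genes are -0.58 and -0.28.

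All 15 members called in LNCaP-AI cells were among the 31 of 42 called in DU-145 cells, a share that makes a large overlap likely. The matching overlap over all genes is not given here. A further 16 were called in DU-145 cells alone and 11 in neither line, and these counts do not test a difference. Of the 31, 29 had a log2 fold change below 0 in LNCaP-AI cells; HNRNPH2 and CLK4 did not. Across the 41 members tested in both lines the log2 fold changes had a Pearson r of 0.54 and a Spearman rho of 0.57, a description across genes of the same 12 samples. An interaction term, fitted to all 12 samples, tested whether DOX acted unequally in the 2 lines. By edgeR 0 of 42 members passed an adjusted p of 0.05, where 9.18% of all 16800 genes did (5.43% above 0 and 3.76% below). In simulated data this test recovered 5 of 200 log2 changes of 1, so 0 calls do not show equal effects in the lines. DESeq2 called 6, where it called 13.6% of all genes. By edgeR 7 had an unadjusted p under 0.05, against 25.4% of all genes. The members with the smallest p were chosen after their values were seen: HNRNPH2 (LNCaP-AI minus DU-145, 0.72 ± 0.220 SE, adjusted p = 0.0670 by edgeR), CLK4 (0.56 ± 0.167, adjusted p = 0.0620) and HNRNPAB (-0.41, adjusted p = 0.0965). HNRNPH2 was at 165, 109 and 109 CPM with vehicle and 129, 151 and 155 CPM with DOX in LNCaP-AI cells, so it was higher in vehicle 1, DOX 2 and DOX 3 than in the other samples. CLK4 was at 12, 15.1 and 13.4 CPM with vehicle and 13.0, 15.7 and 15.8 CPM with DOX there.

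Without DOX the lines differed in many of these genes. In the vehicle samples 27 of 42 members differed between the lines (23 lower and 4 higher in LNCaP-AI cells, edgeR over all 12 samples), a share close to that of all genes tested, of which 66.3% differed (28.7% lower, 37.6% higher). At an unadjusted p under 0.05 there were 28 members, against 69.5% of all genes, and the vehicle groups did not overlap for 23 members that were lower and 4 that were higher in LNCaP-AI cells, against 32% and 39.5% of all genes (71.5% in either direction). PTBP3 was 470 ± 59.9 CPM in DU-145 cells and in LNCaP-AI cells 171 ± 14.0 CPM (SD, n = 3 per group, values scaled over all 12 samples), a log2 difference of -1.46. HNRNPUL1 was 614 ± 42.5 and 266 ± 31.3 CPM (-1.21), SRSF5 210 ± 21.0 and 99.3 ± 11.7 CPM (-1.08) and HNRNPC, which binds uridine tracts, 918 ± 30.9 and 497 ± 40.1 CPM (-0.89). SRSF8, a retrocopy-derived relative of SRSF2, was higher in LNCaP-AI cells (161 ± 28.3 against 68.7 ± 1.87 CPM, log2 difference 1.23), as were HNRNPH2 (0.68), SRPK2 (0.42) and SRSF4 (0.41). LNCaP-AI vehicle 1 was the highest vehicle sample for SRSF8 (210, 159 and 148 CPM, scaled within the line), HNRNPH2 (165, 109 and 109 CPM) and SRPK2 (153, 108 and 106 CPM). It was not for SRSF4 (151, 145 and 155 CPM). Leaving out 1 sample gave 0.24 to 0.51 for SRPK2 and 0.48 to 0.79 for HNRNPH2. SRSF1 differed by -0.39. SRSF12 showed the widest gap, with 60, 52 and 58 counts in DU-145 vehicle samples against 0, 3 and 0 in LNCaP-AI vehicle samples. Per total count this was a ratio of 104 (95% exact binomial interval 34.8 to 507, counting error only). With DOX it was 160 counts over the 3 DU-145 samples and 0 over the 3 LNCaP-AI samples, at least 82.6-fold lower against a floor of 3 counts over the group.

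Between genes, levels were compared per kilobase of merged exons. In DU-145 vehicle samples HNRNPK (181 ± 5.29 CPM per kb, SD, n = 3), HNRNPAB (178 ± 7.99) and HNRNPA2B1 (161 ± 1.13) were the highest; HNRNPK and HNRNPAB did not differ beyond their spread. In LNCaP-AI vehicle samples HNRNPK (168 ± 13.1 CPM per kb) and HNRNPF (157 ± 16.3) led, within their spread of each other, ahead of HNRNPA2B1 (125 ± 10.5). At the other end were CLK4 (2.73 and 1.59 CPM per kb in DU-145 and LNCaP-AI cells), PTBP2 (1.03 and 0.972) and SRSF12 (1.11 and 0.0118). The order depended on the length used: with the canonical transcript HNRNPA2B1 was first in both lines.

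The other genes of the splicing machinery were described for comparison with the members, by lists of small nuclear ribonucleoprotein (snRNP) core and U1 proteins, of U2 and 3 prime splice-site factors, and of tri-snRNP and PRP19 proteins. These names are short labels. The first list also holds the U2 proteins SNRPA1 and SNRPB2, and the last also holds other RNA helicases of splicing, DDX46 among them. Over these 55 tested genes the median log2 fold change in DU-145 cells was 0.05, with 20 called higher and 7 lower, against 0 higher and 31 lower of the 42 members. Of all genes tested there, 26.3% were called higher and 25.3% lower. Of the tri-snRNP and PRP19 genes 11 of 26 rose and 2 fell. XAB2 (0.63) and SNU13 (0.56) rose most by adjusted p, and DDX46 (-0.60) and PRPF19 (-0.39) fell. SF3B5 (0.50) and PHF5A (0.38), both of the SF3b complex that contacts the branch site, rose, while SF3B3 (-0.24) and U2SURP (-0.27) fell. Among the Sm ring proteins SNRPD3 rose (0.47), and SNRPE (-0.59) and SNRPD1 (-0.25) fell. SNRPN rose (0.73), and its reads can be shared with overlapping transcripts of its locus. In LNCaP-AI cells the same 55 genes had a median of -0.23, or -0.29 and -0.06 within the sides, with 1 called higher (SNRPN, 1.10). The 4 called lower were SF3B3 (-0.57), CDC5L (-0.41), SNRNP200 (-0.38) and DDX23 (-0.46). Of all genes tested in LNCaP-AI cells, 7.22% were called higher and 5.52% lower (12.7% in either direction).

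SR-related proteins lay nearer to the members. For the lists that follow, the shares of all genes called lower and higher were 25.3% and 26.3% in DU-145 cells. In LNCaP-AI cells these shares were 5.52% and 7.22%. In DU-145 cells 6 of 13 fell and 1 rose (median -0.21): PNN, a nuclear speckle protein of exon junctions, fell by 0.65 and LUC7L3, a U1-associated factor, by 0.62 on the log2 scale, and SRRM2, the scaffold of nuclear speckles, rose by 0.22. In LNCaP-AI cells PNN (-0.63) and RNPS1 (-0.49) were the 2 calls. Of the other kinases and import factors of SR proteins, CLK2 (-0.81) and PRPF4B (-0.61) fell in DU-145 cells and CLK3 rose (0.50). In LNCaP-AI cells PRPF4B (-0.50) and TNPO3, the import receptor of SR proteins (-0.45), fell. Among 26 other splicing regulators tested in DU-145 cells 12 fell and 4 rose, with TARDBP (TDP-43) at -0.65, MATR3 at -1.62 (uncertain, since the counts hold 2 identifiers for it) and the epithelial regulator ESRP1 at 1.20, followed by CELF2 (0.53). In LNCaP-AI cells SFPQ (-0.62) was among 4 that fell, and MBNL2 was the 1 that rose (1.20). Of the 15 exon junction and nonsense-mediated decay genes, 3 fell and 2 rose in DU-145 cells, with RBM8A at -0.40, SMG8 at -0.45 and SMG5 at 0.33. This share of 33.3% in either direction was below the 51.5% of all genes. RBM8A (-0.56) and UPF2 (-0.39) fell in LNCaP-AI cells.

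**Figure D4:**
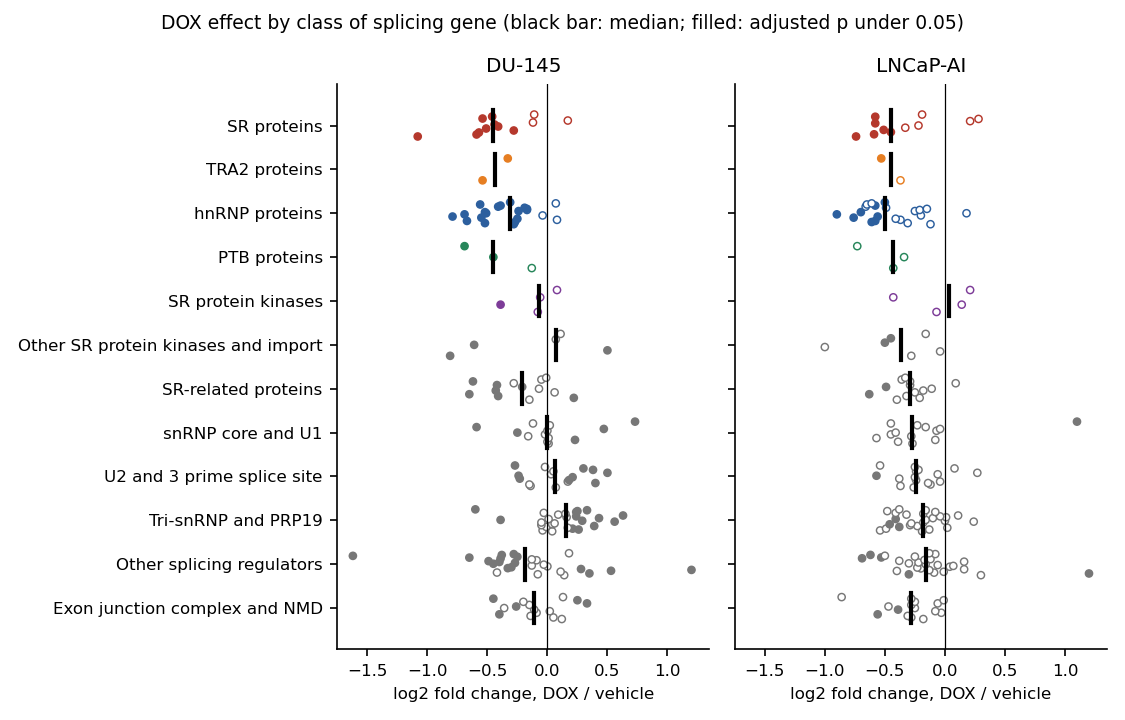
Log2 fold change with DOX of each tested gene by class in DU-145 (left) and LNCaP-AI cells (right); the black bar is the class median and filled points passed an adjusted p of 0.05 by edgeR. Colours mark the 5 classes of the 42 members and grey the other lists; in DU-145 cells the medians run from -0.45 for SR proteins to 0.15 for tri-snRNP and PRP19 genes.

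Markers of proliferating cells moved with the members in both lines. Beside the marker counts, 25.3% of all genes were called lower and 26.3% higher in DU-145 cells. In LNCaP-AI cells 5.52% were called lower and 7.22% higher. In DU-145 cells 11 of 18 fell and 1 rose (median -0.34), and their summed level was 6380 to 6670 CPM with vehicle and 4840 to 5170 CPM with DOX. In LNCaP-AI cells 10 of 18 fell and 0 rose by edgeR (18 lower and 0 higher at an unadjusted p under 0.05, median -0.94), and the sum was 4980 to 5280 CPM against 3460, 2250 and 2220 CPM. DOX 1 had the highest sum of the LNCaP-AI DOX samples for these markers and for the members. Luminal prostate markers moved the other way in LNCaP-AI cells: of 10 tested, 6 rose and 0 fell by edgeR (7 higher at an unadjusted p under 0.05, median 1.52, or 1.29 and 1.45 within the sides). KLK3 was at 190, 150 and 140 CPM with vehicle and 353, 444 and 470 CPM with DOX, and the list summed to 2810 to 4450 CPM with vehicle and 4470 to 6100 CPM with DOX. In DU-145 cells this list summed to at most 55.9 CPM. The parts of proliferation and of luminal marker change in the members' change were not tested.

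**Figure D5:**
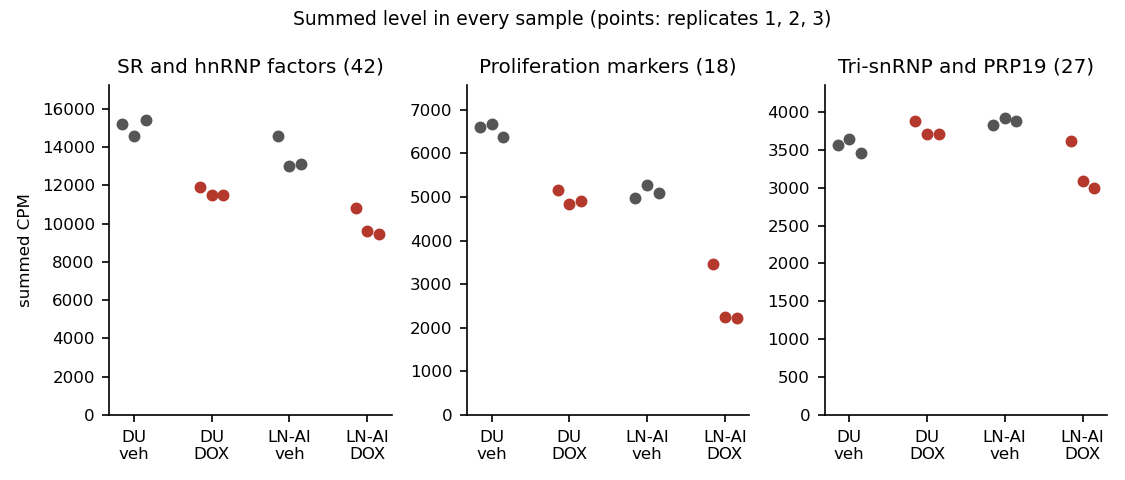
Summed CPM of the 42 splicing factor genes, of 18 proliferation markers and of 27 tri-snRNP and PRP19 genes in every sample (linear axes from 0; grey, vehicle; red, DOX; DU, DU-145; LN-AI, LNCaP-AI). Members and proliferation markers are lower in every DOX sample than in every vehicle sample of the same line, whereas the tri-snRNP and PRP19 sum is not lower with DOX in DU-145 cells (3460 to 3640 CPM with vehicle, 3710 to 3880 CPM with DOX).

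Some members are neighbours in the genome. HNRNPD and HNRNPDL lie on the minus strand of chromosome 4 with 48.1 kb between them, and both fell in both lines. HNRNPLL and SRSF7 lie 140 kb apart on chromosome 2, where SRSF7 fell by 0.44 in DU-145 cells and HNRNPLL by 0.17 on the log2 scale. On chromosome 5, CLK4 lies 392 kb from HNRNPAB and 984 kb from HNRNPH1, and these 3 genes had log2 fold changes of -0.39, 0.08 and -0.69 in DU-145 cells. Exons of 22 members overlap those of another annotated gene, which includes KMT2E opposite SRPK2 and CBX3 opposite HNRNPA2B1. Another 22, not all different, have annotated pseudogene copies, and the copies of HNRNPA1 held up to 4.07% of the counts of gene and copies together. Values of these genes are uncertain. The share held by copies does not bound the error, since the treatment of reads shared between genes is not given.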

How the data were processed

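RNA-seq counts of 12 samples were analysed, 3 in each of 4 groups. The values are raw counts per gene as deposited: the authors isolated RNA with Trizol, prepared TruSeq stranded mRNA libraries and aligned reads with STAR (2.7.0 in the submitters' processing notes, which also name CASAVA 1.8.2 and DESeq2 1.24.0) to GRCh38. The counting tool, its use of strand and its treatment of reads shared between genes are not given in the sources used here. Total counts ranged from 10423437 to 26961777, and no pair of samples agreed within sampling noise. Cells were cultured in triplicate, with nothing on separate passages, so p-values measure the spread between these samples, which may be partly technical. Counting intervals cover counting error only.

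Identifiers were matched without version to GENCODE 44 symbols and positions. Within each line, genes reaching 10 counts in 3 or more samples were tested with edgeR 4.0.16 (TMM, glmQLFit, glmQLFTest, R 4.3.3) and adjusted by Benjamini-Hochberg (threshold 0.05); each SE is the absolute log2 fold change over the square root of F. CPM values are TMM-normalised within a line unless stated. The interaction and the contrast of vehicle groups used all 12 samples. Values within the sides are differences of mean log2(CPM + 0.5). Alternatives were DESeq2 1.42.0, other normalisations and filters, a fold threshold of 1.5, the replicate number as a block, all samples in 1 fit and leaving out each sample. The code was tested on simulated data in which 200 genes were changed by 1 on the log2 scale. The test recovered 168 of these for DU-145, 24 for LNCaP-AI, 5 for the interaction and 54 for the vehicle contrast. False calls numbered 5, 1, 0 and 2. The absence of a call in LNCaP-AI cells or in the interaction therefore does not show the absence of a change.

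The members and lists were chosen with earlier results of these data known. Values per sample are given, in each line, for called members with the smallest adjusted p of each class (at most 6 SR, 6 hnRNP and 2 of other classes), for members under 3 counts and for contrasting genes named after their values were seen; from the other lists at most 2 genes per direction were named, and some genes that this rule selects are not reported here.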

Additional observations from a re-analysis of the deposited data

Results flagged for a closer look

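The DOX effect differed between the lines for 13 genes of the other splicing lists in the interaction test (edgeR, adjusted p under 0.05) and for 0 of the 42 members. These lists held 6 to 27 tested genes each. The share called ran from 0% (exon junction and decay genes) to 33.3% (other kinases and import factors), against 9.18% of all 16800 genes. The differences (LNCaP-AI minus DU-145, log2) were below 0 for 11 genes. These were ESRP1 (-1.31), PRPF8 (-0.66), PHF5A (-0.57), CLK3 (-0.51), TNPO3 (-0.48), XAB2 (-0.48), SNRPD3 (-0.47), DDX23 (-0.46), DHX8 (-0.45), SRRM2 (-0.39) and CDC5L (-0.39). They were above 0 for MBNL2 (0.88) and for MATR3 (1.16), a gene with 2 identifiers in the counts whose reads can be split between them. Of the 55 core spliceosome genes tested, 7 were called below 0 and 0 above (unadjusted, 27 below and 3 above). Over all 16800 genes 3.76% were called below 0 and 5.43% above, and 25.4% had an unadjusted p under 0.05 in either direction. PRPF8, the central protein of the tri-snRNP, was at 0.21 in DU-145 (adjusted p = 0.0225 by edgeR) and -0.49 in LNCaP-AI cells (adjusted p = 0.0662, and -0.55 and -0.27 within the sides). The difference between the LNCaP-AI sides enters each of these values, and its part was not tested.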

How the results depend on the processing

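All members called in DU-145, in LNCaP-AI or between the vehicle groups kept their direction under each alternative, leaving out a sample included. When 1 sample was left out, 11, 47 and 9 of these refitted values, respectively, no longer passed the test. In DU-145 cells the count of 31 called members stayed within 1.5 times except with a fold threshold of 1.5. That threshold left 2 of 42 (SRSF1 and HNRNPDL), a smaller share than the 8.09% of all genes. Leaving out 1 sample gave 27 to 31, against 44.2 to 52.8% of all genes. In LNCaP-AI cells the count of 15 was 28 with DESeq2, 27 with all 12 samples in 1 fit and 0 with the fold threshold. Of all genes these settings called 21.9%, 23.4% and 0.848%. The count was 0 with a replicate block, where 0 of all genes were called (23 members and 2909 of 16030 genes at an unadjusted p under 0.05). It was 0 to 23 when 1 sample was left out, against 0.00632 to 23.6% of all genes. For the interaction, 0 members became 6 with DESeq2, which called 13.6% of all genes. They became 0 to 8 when 1 sample was left out (8 without LNCaP-AI DOX 1, where 21.3% of all genes were called). Between the vehicle groups 27 became 8 of 42 with the fold threshold, a smaller share than the 40.6% of all genes. Without 1 sample the count was 25 to 29, against 60.4 to 70.9% of all genes. The cause of these differences was not tested. The correlation of same-numbered vehicle and DOX samples was -0.0999 to 0.139 in DU-145 and -0.943 to -0.823 in LNCaP-AI cells, which gave no pairing by number. With the block, 30, 0, 0 and 28 members were called in DU-145, LNCaP-AI, the interaction and the vehicle contrast. The shares of all genes were 50.7%, 0%, 0.31% and 62.3%.

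Over all genes, the 7033 calls in DU-145 cells became 1104 with the fold threshold and 4083 with all samples in 1 fit (5973 to 7115 without 1 sample). The 2043 in LNCaP-AI cells became 3517 with DESeq2, 136 with the fold threshold, 0 with the block and 3933 with all samples (1 to 3538 without 1 sample). The 1543 of the interaction became 884 with no filter, 200 with the fold threshold and 52 with the block (737 to 3471 without 1 sample), and the 11134 between vehicle groups became 6815 with the fold threshold. HNRNPA2B1 was at 161 and 125 CPM per kb of merged exons in DU-145 and LNCaP-AI vehicle samples, 303 and 235 per kb of the longest transcript, and 561 and 434 per kb of the canonical transcript, a length chosen after seeing the data. Depth limits SRSF12 in LNCaP-AI cells, where its counts were 3 or fewer.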
